A study of Mus musculus with 15 samples.

Results

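The unfolded protein response (UPR) is described here through 33 genes, of 23329 genes counted in each library, in 15 mouse tumors that carry a *Myc* or *MYCN* transgene with or without caspase-2. The genes were chosen by function, as endoplasmic reticulum (ER) chaperones (11), disulfide isomerases (3), components of ER-associated degradation (ERAD, 7), stress sensors (3), transcription factors (4) and targets of the integrated stress response (5). All 33 were found in the count files, and all 33 were among the 14880 genes kept for testing. The tumors were 4 *EμMyc* and 3 *EμMyc/Casp2-/-* lymphomas of the cervical lymph node from mice of the C57BL/6 background, and, from another model, neuroblastomas of 4 *Th-MYCN* and 4 *Th-MYCN/Casp2-/-* mice, from paraspinal sites in the thorax on a mixed Sv129/C57BL6 background. The *EμMyc* transgene places *Myc* under the immunoglobulin heavy chain enhancer, which is active in B cells, and the *Th-MYCN* transgene places human *MYCN* under the promoter of tyrosine hydroxylase, which is active in sympathetic neural cells. *EμMyc/Casp2-/-* and *Th-MYCN/Casp2-/-* mice carry the same transgenes and lack functional *Casp2*. Tumor onset was at 13, 13, 13 and 19 weeks in *EμMyc*, 9, 8 and 12 weeks in *EμMyc/Casp2-/-*, 21, 13, 10 and 15 weeks in *Th-MYCN* and 15, 18, 24 and 15 weeks in *Th-MYCN/Casp2-/-* mice, so that genotype and age at onset could not be told apart in the lymphomas. Tumor type, strain, tissue and transgene could not be told apart either. All neuroblastomas had been chosen for absent or reduced vascularization. Each library came from 1 tumor of 1 mouse, so that p-values rest on the spread between these tumors.

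Secreted and membrane proteins fold in the ER, where BiP (*Hspa5*) and other chaperones, lectins and disulfide isomerases assist them. When unfolded proteins accumulate, the sensors IRE1 (*Ern1*), PERK (*Eif2ak3*) and ATF6 are released from BiP: IRE1 splices *Xbp1* mRNA, ATF6 is cleaved into a transcription factor, and PERK phosphorylates eIF2α, which lowers general translation and favors *Atf4*. XBP1 and ATF6 raise chaperone and ERAD genes, whereas ATF4 and CHOP (*Ddit3*) raise genes of amino acid supply, redox control and cell death, and ATF4 also answers to kinases that sense amino acid lack, viral RNA or heme lack. B-lineage cells depend on this system when they turn into antibody-secreting plasma cells, and neuroblasts use it to make catecholamine vesicles and membrane receptors.

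The libraries held 9236641 to 13093667 reads on genes in *EμMyc*, 4940464 to 11697757 in *EμMyc/Casp2-/-*, 13862487 to 17638029 in *Th-MYCN* and 10353787 to 15681695 in *Th-MYCN/Casp2-/-* tumors. Levels are given in CPM, the reads of a gene relative to all reads on genes of the library, scaled by TMM, and values of single tumors follow the order EuMyc614, EuMyc743b, EuMyc829 and EuMyc835, then EuMycC2ko215, EuMycC2ko239 and EuMycC2ko245, then MYCN175, MYCN235, MYCN332 and MYCN391, then MYCNC2ko118, MYCNC2ko144, MYCNC2ko176 and MYCNC2ko180, as the authors named them. *Casp2* itself was counted at 167, 125, 203 and 139 CPM in *EμMyc*, 58.0, 51.9 and 76.1 CPM in *EμMyc/Casp2-/-*, 125, 93.3, 76.0 and 106 CPM in *Th-MYCN* and 80.2, 57.7, 39.6 and 54.5 CPM in *Th-MYCN/Casp2-/-* tumors. Its level was lower in every *EμMyc/Casp2-/-* than in every *EμMyc* tumor (log2 fold change -1.35 ± 0.27, edgeR likelihood ratio test [LRT] FDR 4.00e-04, quasi-likelihood [QLF] FDR 0.0536), while the neuroblastoma groups overlapped (-0.79 ± 0.25, LRT FDR 0.101, QLF FDR 0.327). Reads were counted over the gene as a unit, so it is not known from which exons those of the *Casp2-/-* tumors came. The B-cell list (*Cd79a*, *Pax5* and 7 more) was higher in lymphomas at all 9 genes and the neuroblast list (*Th*, *Dbh* and 8 more) higher in neuroblastomas at all 10 genes, in both genotypes by LRT, which matches the labels.

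One lymphoma stood apart. EuMycC2ko215 had the fewest reads on genes (4940464), 11.2% unmapped reads against 2.26 to 3.89% in the other 14 libraries, and *Myc* at 498 CPM against 1346 and 1729 CPM in the other *EμMyc/Casp2-/-* lymphomas. Summed over 9 T-cell genes, CPM stood at 118, 162, 107 and 132 in *EμMyc*, 1797, 199.9 and 147 in *EμMyc/Casp2-/-*, 52.8, 82.1, 74.7 and 98.2 in *Th-MYCN* and 63.4, 80.8, 60.0 and 63.6 in *Th-MYCN/Casp2-/-* tumors. *Lck* was the most abundant of these genes in EuMycC2ko215, at 412 CPM, and none of the 9 was at 0 reads there, whereas *Cd3d*, *Cd8b1* or other genes of the list were at 0 in 7 of 8 neuroblastomas. Most log2 fold changes and counts of members that rest on the *EμMyc/Casp2-/-* lymphomas are therefore also given without this tumor. In tumor tissue, fewer cells of a type and less RNA per cell cannot be told apart.

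Promoters, where the factors of the response bind, are printed for the 6 genes to which the results return: the 3 ERAD genes that were higher in lymphomas of both genotypes, *Hspa5* as the textbook target, and the 2 integrated stress response targets that were lowest in *EμMyc* lymphomas relative to *Th-MYCN* neuroblastomas. RefSeq promoters of build GRCm38.p6 ran from 250 bases before to 50 bases after the annotated start. They were matched for 29 of 33 members, all but *Hyou1*, *Manf*, *Derl1* and *Atf6*. In these promoters 4 letter patterns were searched on both strands. The ER stress element (ERSE, bound by ATF6 and XBP1 with NF-Y) was taken as CCAAT, 9 bases of any kind and CCACG, the ERSE-II as ATTGG, 1 base and CCACG, the unfolded protein response element core (UPRE core) as TGACGTG and the ATF4-type C/EBP-ATF response element core (CARE core) as TGATG, 1 base and AA. ERSE and ERSE-II are built from the same parts, since ATTGG is CCAAT read on the other strand, and no 2 matches in members' promoters overlapped. Sequences run 5′ to 3′ on the strand of the gene, and capitals mark the matches, in the order *Syvn1* (chr19:6046326-6046625, plus strand), *Derl3* (chr10:75893148-75893447, plus strand), *Herpud1* (chr8:94386179-94386478, plus strand), *Hspa5* (chr2:34771840-34772139, plus strand), *Chac1* (chr2:119350992-119351291, plus strand) and *Trib3* (chr2:152344011-152344310, minus strand).
Syvn1: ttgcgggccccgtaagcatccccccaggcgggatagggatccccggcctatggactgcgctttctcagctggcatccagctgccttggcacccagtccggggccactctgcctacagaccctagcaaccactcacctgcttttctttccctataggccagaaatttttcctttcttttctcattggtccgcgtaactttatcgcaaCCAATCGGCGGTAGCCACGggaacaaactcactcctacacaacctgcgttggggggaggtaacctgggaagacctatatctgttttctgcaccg
Derl3: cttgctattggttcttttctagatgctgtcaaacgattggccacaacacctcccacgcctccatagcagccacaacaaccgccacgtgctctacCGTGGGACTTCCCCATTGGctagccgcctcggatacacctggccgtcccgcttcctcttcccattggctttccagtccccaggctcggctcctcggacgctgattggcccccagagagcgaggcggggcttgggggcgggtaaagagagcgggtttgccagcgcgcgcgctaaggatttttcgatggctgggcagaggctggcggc
Herpud1: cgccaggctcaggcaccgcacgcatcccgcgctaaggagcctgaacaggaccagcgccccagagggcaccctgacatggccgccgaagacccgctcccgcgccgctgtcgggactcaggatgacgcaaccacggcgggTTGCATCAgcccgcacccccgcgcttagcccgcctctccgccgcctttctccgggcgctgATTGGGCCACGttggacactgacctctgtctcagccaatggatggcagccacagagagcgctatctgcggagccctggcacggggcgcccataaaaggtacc
Hspa5: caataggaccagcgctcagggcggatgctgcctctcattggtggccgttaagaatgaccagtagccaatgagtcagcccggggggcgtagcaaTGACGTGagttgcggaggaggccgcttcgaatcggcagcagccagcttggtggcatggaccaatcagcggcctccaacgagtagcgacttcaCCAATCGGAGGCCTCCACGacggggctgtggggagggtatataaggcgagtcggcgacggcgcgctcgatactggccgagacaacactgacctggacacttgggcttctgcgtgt
Chac1: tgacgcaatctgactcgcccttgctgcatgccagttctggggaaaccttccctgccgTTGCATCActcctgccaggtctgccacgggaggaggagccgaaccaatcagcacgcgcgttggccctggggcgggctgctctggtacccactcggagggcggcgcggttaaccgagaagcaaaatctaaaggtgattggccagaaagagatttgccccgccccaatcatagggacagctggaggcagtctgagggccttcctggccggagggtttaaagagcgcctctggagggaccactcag
Trib3: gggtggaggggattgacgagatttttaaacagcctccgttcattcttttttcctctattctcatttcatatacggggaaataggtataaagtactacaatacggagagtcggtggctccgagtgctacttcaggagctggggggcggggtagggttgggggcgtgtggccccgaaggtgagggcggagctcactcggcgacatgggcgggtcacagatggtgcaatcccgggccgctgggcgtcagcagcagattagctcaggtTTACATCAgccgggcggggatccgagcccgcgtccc

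ERSE stood in the promoters of 9 of 29 members, against 0.137% of the 27025 genes of the RefSeq table. They were the chaperones *Hspa5*, *Hsp90b1*, *Calr* and *Canx*, the co-chaperone *Dnajc3*, *Creld2*, the isomerase *Pdia6*, and the ERAD genes *Syvn1* and *Derl3*. *Hsp90b1* held 2 matches and each of the others 1. ERSE-II stood in *Dnajb11* and *Herpud1* (2 of 29, against 0.0444% of genes), and the UPRE core only in *Hspa5* (1 of 29, against 2.22%). The CARE core stood in *Atf3*, *Trib3*, *Asns*, *Chac1* and *Herpud1* (5 of 29, against 4.51%). *Herpud1* was the member with a match both to ERSE-II, beginning at -52 from its start, and to the CARE core, beginning at -112. Of the 10 ERSE matches, all lay upstream of the start, from -212 in *Hsp90b1* to -44 in *Syvn1*. These are matches of letters, and some of these genes, *Hspa5* among them, served to define the elements, so the match of the module to them is no independent result.

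**Figure D1:**
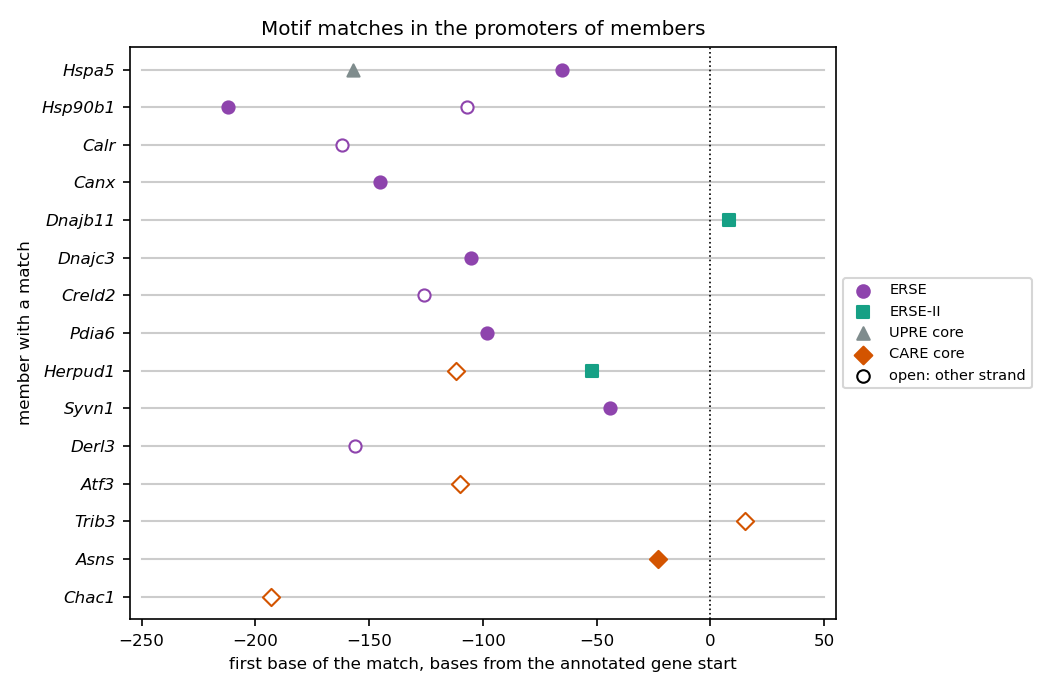
Positions of motif matches in the promoters of the 15 members with a match, drawn as the first base of each match in bases from the annotated gene start (dotted line), with filled symbols for the strand of the gene and open symbols for the other strand. ERSE matches (circles) lie between -212 and -44 and are all in chaperone, isomerase or ERAD genes, while CARE cores (diamonds) are in *Asns*, *Atf3*, *Chac1*, *Herpud1* and *Trib3*.

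Per length, the module spanned a wide range. On the RPKM scale, which divides CPM by exon length in kilobases (here the mean over all 15 tumors), *Calr*, a calcium-binding lectin chaperone, was highest at 196 RPKM, followed by the Hsp90 of the ER *Hsp90b1* (184 RPKM), the membrane lectin *Canx* (155 RPKM), *Atf4* (143 RPKM), *Pdia3* (139 RPKM) and *Hspa5* (122 RPKM). Their ranges over tumors overlapped, and differences between these genes within a tumor were not tested, so this is an order of means only. The order also varied between groups. By group mean *Hsp90b1* led in *EμMyc* and *EμMyc/Casp2-/-* lymphomas (216 and 235 RPKM, *Calr* 211 and 227 RPKM). *Calr* led in *Th-MYCN* and *Th-MYCN/Casp2-/-* neuroblastomas (194 and 161 RPKM, *Hsp90b1* 163 and 134 RPKM), and *Canx* there lay behind *Pdia3* or *Atf4* (126 and 109.7 RPKM). The lowest over all tumors were *Atf3* (3.66 RPKM), *Chac1* (2.53 RPKM), *Trib3* (1.48 RPKM) and the sensor *Ern1* (0.974 RPKM). Between the highest and the lowest of the 15 tumors, 14 members differed by less than 3-fold, 15 by 3-fold to under 10-fold and 4 by more, or had a tumor at 0 reads. *Hyou1*, a large Hsp70-like chaperone, was the steadiest (1.67-fold), and those 4 were *Derl3* (183-fold), *Ern1* (74.8-fold, with 1 read in EuMycC2ko215), *Trib3* (24.0-fold) and *Chac1*, with 0 reads in EuMycC2ko215. Within some groups, members were highest or lowest in 1 tumor more often than genes at large. EuMyc829 was the lowest *EμMyc* lymphoma at 19 of 33 members (25.5% of all genes) and EuMyc835 the highest at 14 (22.5%), MYCN332 was the highest *Th-MYCN* neuroblastoma at 17 (29.6%), and EuMycC2ko245 was the lowest *EμMyc/Casp2-/-* lymphoma at 16 (29.3%). EuMycC2ko215 was the highest *EμMyc/Casp2-/-* lymphoma at 15 (39.6%), near its share of all genes, and the lowest at 9, under its share (44.5%).

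**Figure D2:**
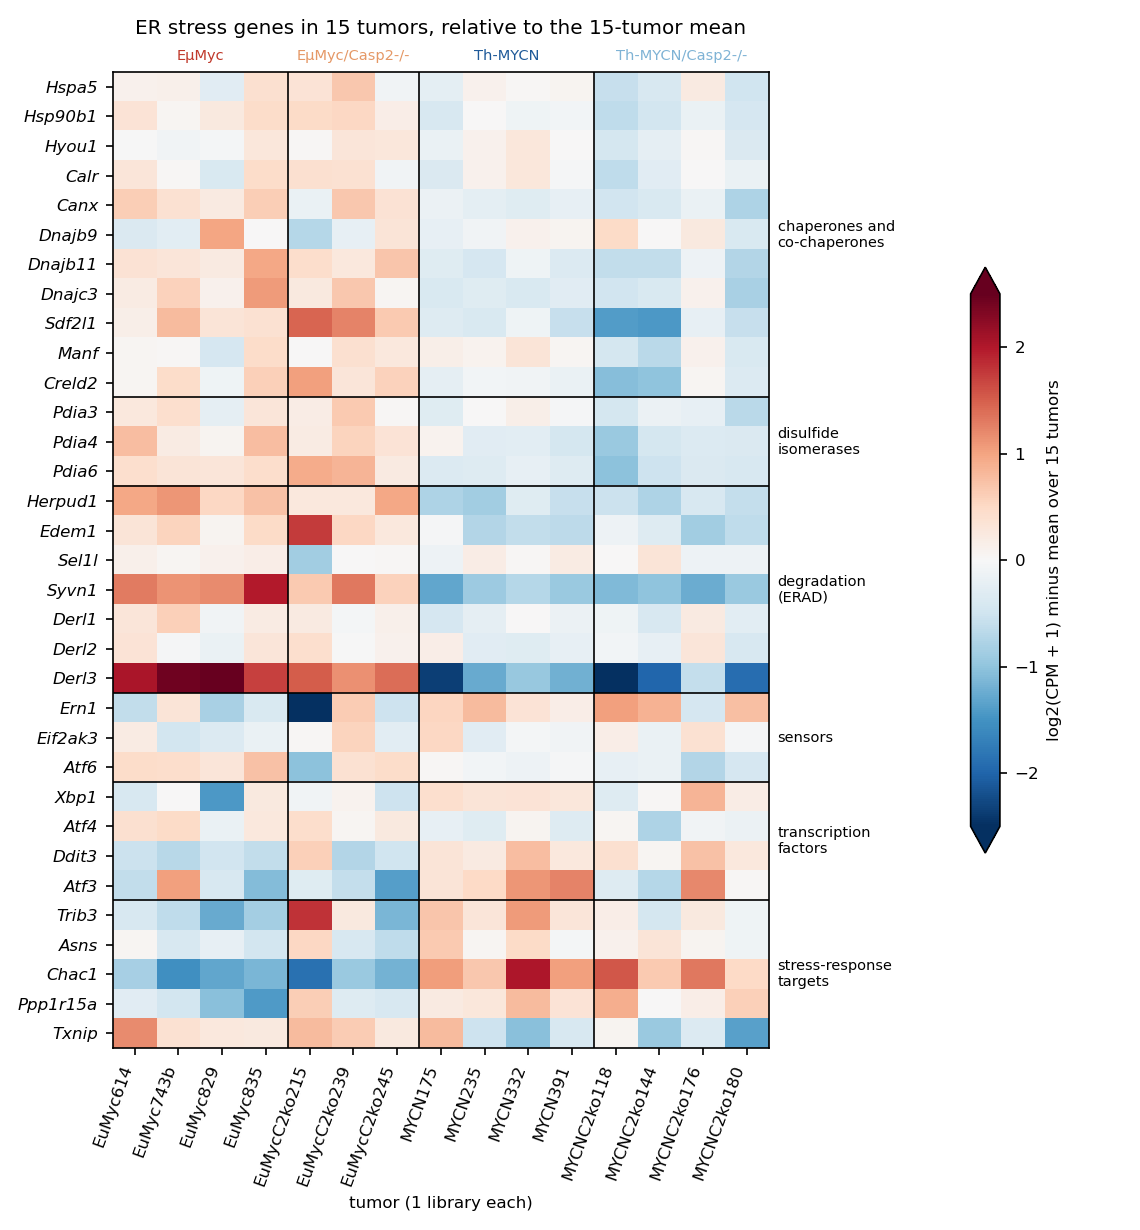
Level of each of the 33 members (rows, by role) in each of the 15 tumors (columns, by group), as log2(CPM + 1) minus the mean of the gene over all 15 tumors, with colors ending at ±2.5. *Derl3* and *Syvn1* are red in all 7 lymphomas and blue in all 8 neuroblastomas, *Chac1* shows the opposite, and *Ern1* is darkest blue in EuMycC2ko215, where it had 1 read.

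Lymphomas and neuroblastomas were compared first, within each genotype, to see which branches of the response differ between the tumor types. A gene was called when its FDR was under 0.05 and its log2 fold change over 1 in size, that is 2-fold. In *EμMyc* against *Th-MYCN* tumors 3 of 33 members rose and 4 fell by LRT, while 18.9% of all tested genes rose and 28.5% fell. In *EμMyc/Casp2-/-* against *Th-MYCN/Casp2-/-* tumors 8 members rose and 1 fell, against 20.5% and 27.6% of all genes. QLF gave the same numbers of members, with 18.3% up and 27.8% down of all genes in the former comparison and 19.7% and 26.6% in the latter. *Derl3*, *Syvn1* and *Herpud1* rose and *Chac1* fell in both comparisons, which share no tumor. At FDR alone, with no limit on the fold change, 12 members rose and 5 fell in *EμMyc* against *Th-MYCN* (all genes 28.3% and 33.9%), and 17 rose and 1 fell in *EμMyc/Casp2-/-* against *Th-MYCN/Casp2-/-* (all genes 27.7% and 32.5%). Every lymphoma lay above every neuroblastoma at 11 members and below at 5 in the former comparison (all genes 26.4% and 32.9%), and at 13 and 1 in the latter (all genes 23.6% and 31.2%). The median log2 fold change of the members was 0.28 and 0.55, beside -0.04 and -0.05 over all genes. Over the fits that each omit 1 tumor it ranged from 0.27 to 0.43 (the latter without EuMyc614) and from 0.51 to 0.72 (the latter without MYCNC2ko176). Without EuMycC2ko215, 10 members rose and 1 fell by over 2-fold in the latter comparison (all genes 20.8% and 27.4%), 18 rose and 3 fell at FDR alone (28.6% and 31.4%), and 16 lay above and 4 below without overlap (31.1% and 35.9%). By each of these counts the share of members that fell was under that of all genes. The share that rose depended on the limit: with the 2-fold limit it was under that of all genes in *EμMyc* against *Th-MYCN* and close to it in *EμMyc/Casp2-/-* against *Th-MYCN/Casp2-/-* (above it, at 10 of 33 members, without EuMycC2ko215), and at FDR alone or by overlap it was above that of all genes in both.

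ERAD genes, which pull misfolded proteins out of the ER for the proteasome, held the 3 largest rises in *EμMyc* against *Th-MYCN*, and the largest and the third largest in *EμMyc/Casp2-/-* against *Th-MYCN/Casp2-/-*, where the chaperone *Sdf2l1* lay between *Derl3* and *Syvn1* (below both without EuMycC2ko215). Of 7 ERAD genes 3 rose in *EμMyc* against *Th-MYCN* and 4 in *EμMyc/Casp2-/-* against *Th-MYCN/Casp2-/-* (3 without EuMycC2ko215), while 18.9%, 20.5% and 20.8% of all genes rose. None fell, beside 28.5%, 27.6% and 27.4% of all genes. *Derl3* (chr10:75893413-75895941), the derlin of secretory cells that forms part of the export channel, was counted at 32.98, 43.5, 52.8 and 26.01 CPM in the *EμMyc* lymphomas, 22.5, 17.2 and 20.7 CPM in the *EμMyc/Casp2-/-* lymphomas, 0.611, 2.47, 3.29 and 2.59 CPM in the *Th-MYCN* neuroblastomas and 0.288, 1.09, 4.44 and 1.22 CPM in the *Th-MYCN/Casp2-/-* neuroblastomas. All 7 lymphomas lay above all 8 neuroblastomas, and no neuroblastoma exceeded 4.44 CPM. Its log2 fold change was 4.11 ± 0.58 (SE) in *EμMyc* against *Th-MYCN* (LRT FDR 1.25e-09) and 3.53 ± 0.63 in *EμMyc/Casp2-/-* against *Th-MYCN/Casp2-/-* (LRT FDR 3.87e-07, 3.49 without EuMycC2ko215). *Syvn1* (chr19:6046576-6053712), the ubiquitin ligase HRD1 at the core of this pathway, was at 365, 323, 336 and 587 CPM in the *EμMyc* lymphomas, 234, 373 and 223 CPM in the *EμMyc/Casp2-/-* lymphomas, 59.8, 79.2, 90.5 and 77.9 CPM in the *Th-MYCN* neuroblastomas and 68.4, 73.2, 62.3 and 77.7 CPM in the *Th-MYCN/Casp2-/-* neuroblastomas. The groups did not overlap, and EuMyc835 was the highest of all tumors. *Syvn1* rose by 2.39 ± 0.23 on the log2 scale in *EμMyc* against *Th-MYCN* (LRT FDR 2.33e-21) and 1.97 ± 0.25 in *EμMyc/Casp2-/-* against *Th-MYCN/Casp2-/-* (LRT FDR 6.54e-14, 2.14 without EuMycC2ko215). It shares 91 exon bases with *Mrpl49* on the opposite strand, and reads from the pair cannot be told apart in these libraries. *Herpud1* (chr8:94386438-94395377), a membrane scaffold that gathers derlins around HRD1, stood at 200.2, 219, 146 and 170.4 CPM in the *EμMyc* lymphomas, 123, 123 and 201 CPM in the *EμMyc/Casp2-/-* lymphomas, 59.2, 55.6, 82.8 and 67.9 CPM in the *Th-MYCN* neuroblastomas and 70.3, 59.1, 76.6 and 67.2 CPM in the *Th-MYCN/Casp2-/-* neuroblastomas. Again no lymphoma overlapped with a neuroblastoma, and the log2 fold changes were 1.47 ± 0.21 (LRT FDR 8.50e-11) and 1.12 ± 0.23 (LRT FDR 3.71e-06). Without EuMycC2ko215 the latter was 1.30, and without EuMycC2ko245, the highest of its group, it was 0.85 (FDR 5.37e-04), under the 2-fold limit.

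The other 4 ERAD members were not called in *EμMyc* against *Th-MYCN*. *Edem1*, a lectin that hands glycoproteins to HRD1, rose in *EμMyc/Casp2-/-* against *Th-MYCN/Casp2-/-* (1.47 ± 0.33, LRT FDR 2.17e-05) but by less than 2-fold in *EμMyc* against *Th-MYCN* (0.86 ± 0.30, FDR 0.00887). Its level was 276, 117 and 97.2 CPM in the *EμMyc/Casp2-/-* lymphomas and 44.0 to 74.4 CPM in the *Th-MYCN/Casp2-/-* neuroblastomas. EuMycC2ko215 was the highest tumor, and without it the log2 fold change was 0.92 (FDR 0.00121), under the 2-fold limit. *Sel1l*, the partner that stabilizes HRD1, gave 0.03 ± 0.20 (FDR 0.898) and -0.26 ± 0.22 (FDR 0.314). Without EuMycC2ko215 the latter log2 fold change was 0.04 and thus changed sign. The derlins *Derl1* (0.47 ± 0.20 and 0.23 ± 0.21) and *Derl2* (0.28 ± 0.21 and 0.26 ± 0.23) stayed under 2-fold, and of these values that of *Derl1* in *EμMyc* against *Th-MYCN* passed at FDR alone (FDR 0.0286). Without EuMycC2ko215 the *Casp2-/-* tumors gave 0.22 for *Derl1* and 0.17 for *Derl2*. *Derl2* shares 231 exon bases with *Mis12* on the opposite strand. Summed CPM of the 7 ERAD genes was 1015 ± 131 (SD, n = 4) in *EμMyc*, 859 ± 46.1 (n = 3) in *EμMyc/Casp2-/-*, 443 ± 21.5 (n = 4) in *Th-MYCN* and 442 ± 21.7 (n = 4) in *Th-MYCN/Casp2-/-* tumors.

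Most chaperones lay above 0. None of 11 passed both limits in *EμMyc* against *Th-MYCN* (18.9% of all genes rose), although 9 of 11 had a log2 fold change above 0 (median 0.41, all genes 48.9% above 0) and 5 passed at FDR alone: *Hsp90b1*, *Canx*, *Dnajb11*, *Dnajc3* and *Sdf2l1*, with log2 fold changes from 0.41 to 0.89. In *EμMyc/Casp2-/-* against *Th-MYCN/Casp2-/-* 10 of 11 were above 0 (median 0.70, all genes 48.5% above 0) and 2 rose by over 2-fold, *Sdf2l1* and *Creld2*, near the 20.5% of all genes, and without EuMycC2ko215 these numbers were 11 of 11 (median 0.81) and 4. *Sdf2l1* (chr16:17130138-17132383), which keeps the co-chaperone *Dnajb11* bound to BiP, was at 54.4, 85.3, 61.6 and 63.6 CPM in the *EμMyc* lymphomas, 137, 116 and 78.0 CPM in the *EμMyc/Casp2-/-* lymphomas, 39.2, 37.2, 45.7 and 32.5 CPM in the *Th-MYCN* neuroblastomas and 18.1, 17.4, 42.04 and 32.5 CPM in the *Th-MYCN/Casp2-/-* neuroblastomas. Every lymphoma exceeded every neuroblastoma, the *EμMyc/Casp2-/-* lymphomas EuMycC2ko215 and EuMycC2ko239 held the 2 highest values, and the *Th-MYCN/Casp2-/-* neuroblastomas MYCNC2ko118 and MYCNC2ko144 the 2 lowest. Its log2 fold change was 0.78 ± 0.29 in *EμMyc* against *Th-MYCN* (FDR 0.0140) and 2.01 ± 0.31 in *EμMyc/Casp2-/-* against *Th-MYCN/Casp2-/-* (FDR 1.28e-09), and 1.88 without EuMycC2ko215 (FDR 1.78e-07). *Creld2*, an ER protein induced with *Manf* under stress, rose in *EμMyc/Casp2-/-* against *Th-MYCN/Casp2-/-* (1.202 ± 0.30, FDR 1.36e-04, 1.03 without EuMycC2ko215) and gave 0.42 ± 0.27 in *EμMyc* against *Th-MYCN* (FDR 0.174). BiP (*Hspa5*), which the UPR raises in most cells, reached 414 to 661 CPM in *EμMyc*, 472 to 798 CPM in *EμMyc/Casp2-/-*, 425 to 541 CPM in *Th-MYCN* and 335 to 585 CPM in *Th-MYCN/Casp2-/-* tumors. These ranges overlapped, with log2 fold changes of 0.11 ± 0.23 (FDR 0.701) and 0.62 ± 0.25 (FDR 0.0207), the latter 0.67 without EuMycC2ko215. The chaperones *Hyou1*, *Calr* and *Manf* and the co-chaperone *Dnajb9* stayed between -0.26 and 0.55 in both comparisons, and *Hyou1* (0.45 ± 0.19, FDR 0.0270) and *Manf* (0.55 ± 0.23, FDR 0.0308) passed at FDR alone in *EμMyc/Casp2-/-* against *Th-MYCN/Casp2-/-*. Without EuMycC2ko215 the *Casp2-/-* tumors gave 0.59 for *Hyou1*, 0.47 for *Calr*, 0.71 for *Manf* and 0.01 for *Dnajb9*, which thus changed sign.

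Disulfide isomerases, which form and shuffle disulfide bonds, were above 0 at all 3 genes in both comparisons. *Pdia6* (chr12:17266545-17284770), which also binds IRE1, was at 328, 305, 302 and 334 CPM in the *EμMyc* lymphomas, 468, 444 and 287 CPM in the *EμMyc/Casp2-/-* lymphomas, 194, 197, 212 and 195 CPM in the *Th-MYCN* neuroblastomas and 120.1, 171, 191 and 187 CPM in the *Th-MYCN/Casp2-/-* neuroblastomas. Lymphomas and neuroblastomas did not overlap, and *Pdia6* rose by 1.26 ± 0.21 in *EμMyc/Casp2-/-* against *Th-MYCN/Casp2-/-* (LRT FDR 5.29e-09, 1.19 without EuMycC2ko215), beside 0.67 ± 0.19 in *EμMyc* against *Th-MYCN* (FDR 0.00112). *Pdia4* gave 0.70 ± 0.21 and 0.88 ± 0.23 and *Pdia3* 0.25 ± 0.20 and 0.67 ± 0.22 in the same order, all under 2-fold, and *Pdia3* in the *Casp2-/-* tumors was 0.79 without EuMycC2ko215. Without EuMycC2ko215, *Canx* (1.02), *Dnajb11* (1.07) and *Pdia4* (1.01) passed 2-fold and *Edem1* no longer did, so that 10 members rose and 1 fell.

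**Figure D3:**
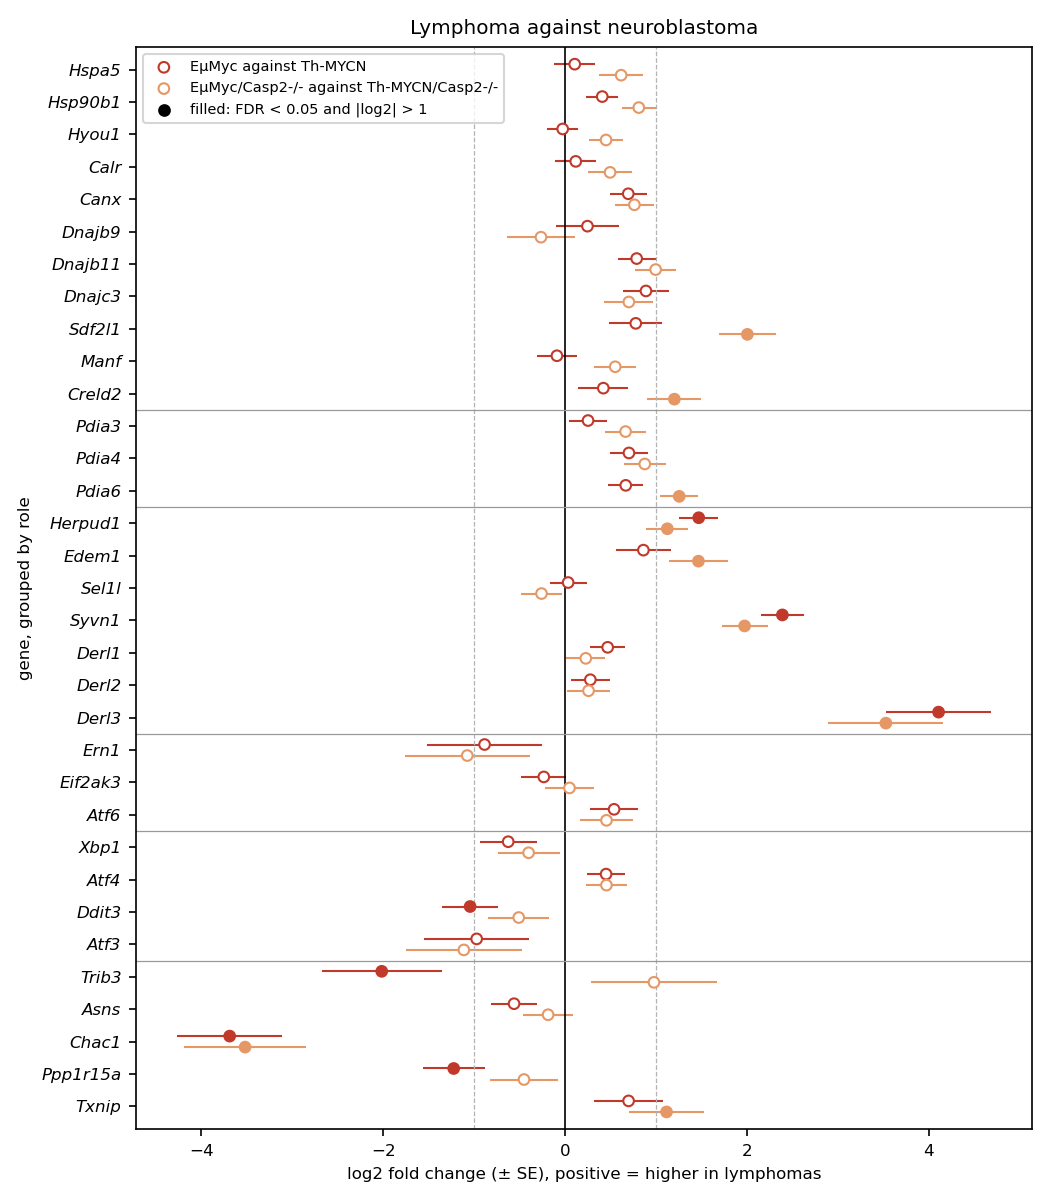
Log2 fold change (± SE) of each member between lymphomas and neuroblastomas, dark red for *EμMyc* against *Th-MYCN* and orange for *EμMyc/Casp2-/-* against *Th-MYCN/Casp2-/-*, with filled points for members that passed FDR 0.05 and 2-fold by LRT. *Derl3*, *Syvn1* and *Herpud1* lie to the right and *Chac1* to the left in both comparisons, chaperones and isomerases lie mostly between 0 and 1, and *Trib3* lies on opposite sides, although without EuMycC2ko215 its orange point would be at -0.33, on the side of the dark red one.

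None of the 3 sensors was called in either comparison. Of all genes 18.9% rose and 28.5% fell in *EμMyc* against *Th-MYCN*, and 20.5% and 27.6% in *EμMyc/Casp2-/-* against *Th-MYCN/Casp2-/-*. *Ern1* (chr11:106394650-106487852), the gene of IRE1, was at 4.02, 8.64, 3.39 and 4.88 CPM in the *EμMyc* lymphomas, 0.195, 10.9 and 4.34 CPM in the *EμMyc/Casp2-/-* lymphomas, 10.1, 12.3, 8.77 and 7.596 CPM in the *Th-MYCN* neuroblastomas and 14.6, 13.0, 4.72 and 11.9 CPM in the *Th-MYCN/Casp2-/-* neuroblastomas. The groups overlapped, and the log2 fold changes were -0.89 ± 0.63 (FDR 0.218) and -1.08 ± 0.68 (FDR 0.175). EuMycC2ko215 had 1 read of *Ern1*, so that its value lies within the counting limit, and without this tumor the log2 fold change was -0.47 (FDR 0.469). Without EuMycC2ko239, the highest of its group, *Ern1* was called lower (-2.14, FDR 0.00968). *Eif2ak3* (chr6:70844515-70905245), which encodes PERK, was at 69.7, 44.1, 47.5 and 53.5 CPM in the *EμMyc* lymphomas, 61.9, 89.7 and 50.0 CPM in the *EμMyc/Casp2-/-* lymphomas, 87.5, 49.4, 58.8 and 56.9 CPM in the *Th-MYCN* neuroblastomas and 68.1, 54.0, 79.2 and 59.0 CPM in the *Th-MYCN/Casp2-/-* neuroblastomas. Both tumor types covered nearly the same range, with log2 fold changes of -0.23 ± 0.25 (FDR 0.423) and 0.05 ± 0.27 (FDR 0.891), the former of which was -0.04 without MYCN175, while the latter changed sign when EuMycC2ko239 or MYCNC2ko144 was left out and was 0.16 without EuMycC2ko215. *Atf6* (chr1:170704674-170867771) was at 95.2, 94.0, 85.6 and 116 CPM in the *EμMyc* lymphomas, 33.8, 90.8 and 95.5 CPM in the *EμMyc/Casp2-/-* lymphomas, 70.4, 66.2, 63.7 and 68.3 CPM in the *Th-MYCN* neuroblastomas and 60.1, 61.6, 41.2 and 51.7 CPM in the *Th-MYCN/Casp2-/-* neuroblastomas. All *EμMyc* lymphomas lay above all *Th-MYCN* neuroblastomas (0.54 ± 0.26, FDR 0.0657), and 2 of 3 *EμMyc/Casp2-/-* lymphomas lay above all *Th-MYCN/Casp2-/-* neuroblastomas while EuMycC2ko215 lay below (0.46 ± 0.29, FDR 0.159). Without EuMycC2ko215 the latter was 0.86 (FDR 6.10e-05), still under 2-fold. Without EuMycC2ko245 it was 0.22 (FDR 0.564).

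Among the 4 transcription factors, 1 fell and none rose in *EμMyc* against *Th-MYCN*, near the 28.5% and 18.9% of all genes. None was called in *EμMyc/Casp2-/-* against *Th-MYCN/Casp2-/-* (20.5% of all genes rose and 27.6% fell). *Xbp1* (chr11:5520659-5525893), the factor that IRE1 activates by splicing and that plasma cells require, was at 62.7, 82.7, 30.1 and 97.5 CPM in the *EμMyc* lymphomas, 77.9, 87.7 and 57.5 CPM in the *EμMyc/Casp2-/-* lymphomas, 112, 104, 105 and 101 CPM in the *Th-MYCN* neuroblastomas and 66.0, 84.4, 149 and 93.6 CPM in the *Th-MYCN/Casp2-/-* neuroblastomas. Each *EμMyc* lymphoma was below each *Th-MYCN* neuroblastoma, with EuMyc829 lowest, but the log2 fold change missed the FDR (-0.63 ± 0.31, FDR 0.0731), as did that of the *Casp2-/-* tumors (-0.40 ± 0.34, FDR 0.314, -0.38 without EuMycC2ko215). Single tumors moved both values: the former was -0.85 without EuMyc835 (FDR 0.0196, past the FDR and under 2-fold) and -0.38 without EuMyc829 (FDR 0.220). The latter was -0.13 without MYCNC2ko176 and -0.25 without EuMycC2ko245. Counts per gene do not separate spliced from unspliced *Xbp1*, so they do not measure IRE1 output. *Atf4* (chr15:80255184-80257541) was at 438, 457, 295 and 398 CPM in the *EμMyc* lymphomas, 447, 341 and 388 CPM in the *EμMyc/Casp2-/-* lymphomas, 284, 267, 347 and 264 CPM in the *Th-MYCN* neuroblastomas and 343, 192, 310.5 and 298 CPM in the *Th-MYCN/Casp2-/-* neuroblastomas. Groups overlapped, and the log2 fold changes of 0.45 ± 0.21 (FDR 0.0503) and 0.46 ± 0.23 (FDR 0.0690) were above 0, with FDRs just over the limit, and the latter was 0.41 without EuMycC2ko215 (FDR 0.156) and 0.31 without MYCNC2ko144 (FDR 0.224). The former passed at FDR alone without EuMyc829 (0.57) or MYCN332 (0.55). The latter did so without EuMycC2ko239 (0.60) or MYCNC2ko118 (0.55). *Atf4* is controlled mainly at translation, which RNA counts do not show.

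*Ddit3* (chr10:127290774-127296288), the gene of CHOP, was at 13.4, 11.9, 14.02 and 12.6 CPM in the *EμMyc* lymphomas, 30.5, 11.6 and 13.9 CPM in the *EμMyc/Casp2-/-* lymphomas, 25.1, 23.4, 34.6 and 24.0 CPM in the *Th-MYCN* neuroblastomas and 26.5, 20.7, 33.8 and 24.0 CPM in the *Th-MYCN/Casp2-/-* neuroblastomas. The *EμMyc* lymphomas sat at 11.9 to 14.02 CPM, below every *Th-MYCN* neuroblastoma, and *Ddit3* fell (-1.04 ± 0.31, LRT FDR 0.00168, QLF FDR 0.00531). The call is at the 2-fold limit, and without EuMyc743b or MYCN332 the log2 fold change was -0.95 or -0.90. In *EμMyc/Casp2-/-* against *Th-MYCN/Casp2-/-* it gave -0.51 ± 0.33 (FDR 0.185), where 2 lymphomas lay below all neuroblastomas and EuMycC2ko215 lay among them, and without that tumor -0.99 (FDR 0.00374). Without EuMycC2ko239, the lowest of its group, it was -0.20 (FDR 0.658), and without EuMycC2ko245 -0.34 (FDR 0.467). *Ddit3* overlaps *Mars*, a tRNA synthetase gene on the opposite strand, by 68 exon bases. *Atf3*, a stress-induced repressor, was at 1.92 to 16.9 CPM over the 15 tumors, and gave -0.97 ± 0.58 (FDR 0.136) and -1.11 ± 0.64 (FDR 0.132). Without EuMyc743b the former was -1.69 (FDR 0.00676) and was called, and without EuMycC2ko215 the latter was -1.36 (FDR 0.115).

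Of 5 targets of the integrated stress response, 3 fell and none rose in *EμMyc* against *Th-MYCN* (28.5% and 18.9% of all genes), and 1 fell and 1 rose in *EμMyc/Casp2-/-* against *Th-MYCN/Casp2-/-* (27.6% and 20.5% of all genes), with equal numbers without EuMycC2ko215. *Chac1* (chr2:119351229-119354381), which degrades glutathione and is raised by ATF4 and CHOP, was at 1.05, 0.257, 0.472 and 0.637 CPM in the *EμMyc* lymphomas, 0, 0.918 and 0.606 CPM in the *EμMyc/Casp2-/-* lymphomas, 6.47, 4.79, 13.9 and 6.36 CPM in the *Th-MYCN* neuroblastomas and 9.65, 4.69, 8.10 and 4.14 CPM in the *Th-MYCN/Casp2-/-* neuroblastomas. Lymphomas stayed at or below 1.05 CPM and neuroblastomas at or above 4.14 CPM. *Chac1* fell by 3.69 ± 0.58 in *EμMyc* against *Th-MYCN* (LRT FDR 5.17e-09) and by 3.52 ± 0.67 in *EμMyc/Casp2-/-* against *Th-MYCN/Casp2-/-* (LRT FDR 1.37e-06) on the log2 scale, the latter -3.05 without EuMycC2ko215. Reads in lymphomas were few, from 0 to 12 per library, and 3 reads correspond to 0.170 to 0.607 CPM over the 15 libraries.

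*Trib3* (chr2:152337422-152344032), a pseudokinase raised by CHOP that restrains AKT, was at 1.66, 1.28, 0.472 and 0.956 CPM in the *EμMyc* lymphomas, 11.3, 3.17 and 0.606 CPM in the *EμMyc/Casp2-/-* lymphomas, 4.70, 3.34, 6.41 and 3.33 CPM in the *Th-MYCN* neuroblastomas and 2.95, 1.61, 3.18 and 2.27 CPM in the *Th-MYCN/Casp2-/-* neuroblastomas. In the *EμMyc* lymphomas it lay below all *Th-MYCN* neuroblastomas and fell (-2.02 ± 0.66, LRT FDR 0.00548). The *EμMyc/Casp2-/-* lymphomas ran from the second lowest to the highest of all 15 tumors, and *EμMyc/Casp2-/-* against *Th-MYCN/Casp2-/-* gave 0.98 ± 0.70 (FDR 0.217). This value rested on EuMycC2ko215: without it the log2 fold change was -0.33 (FDR 0.675), and without EuMycC2ko245, the lowest of its group, it was 1.51 (FDR 0.0223) and *Trib3* was called higher. *Ppp1r15a* (chr7:45522916-45526268), whose product GADD34 reverses eIF2α phosphorylation, was at 17.2, 15.2, 9.76 and 7.33 CPM in the *EμMyc* lymphomas, 33.01, 16.8 and 15.95 CPM in the *EμMyc/Casp2-/-* lymphomas, 24.9, 26.1, 37.7 and 27.2 CPM in the *Th-MYCN* neuroblastomas and 40.5, 21.5, 24.1 and 32.9 CPM in the *Th-MYCN/Casp2-/-* neuroblastomas. It fell in *EμMyc* against *Th-MYCN* without overlap (-1.23 ± 0.34, LRT FDR 9.63e-04) and gave -0.45 ± 0.37 in *EμMyc/Casp2-/-* against *Th-MYCN/Casp2-/-* (FDR 0.297), which was -0.80 without EuMycC2ko215 (FDR 0.0665). Asparagine synthetase *Asns* passed at FDR alone in *EμMyc* against *Th-MYCN* (-0.56 ± 0.26, FDR 0.0458), and gave -0.19 ± 0.28 in the *Casp2-/-* tumors, or -0.56 without EuMycC2ko215 (FDR 0.0493). *Txnip*, an inhibitor of thioredoxin, went to the side of lymphomas, with 0.70 ± 0.38 (FDR 0.102) and a rise of 1.12 ± 0.41 (FDR 0.0126), which was 1.05 without EuMycC2ko215 (FDR 0.0466) and 0.97, under the 2-fold limit, without MYCNC2ko180. It shares 606 exon bases with *Gm15441* on the opposite strand, so its counts may hold reads of both.

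**Figure D4:**
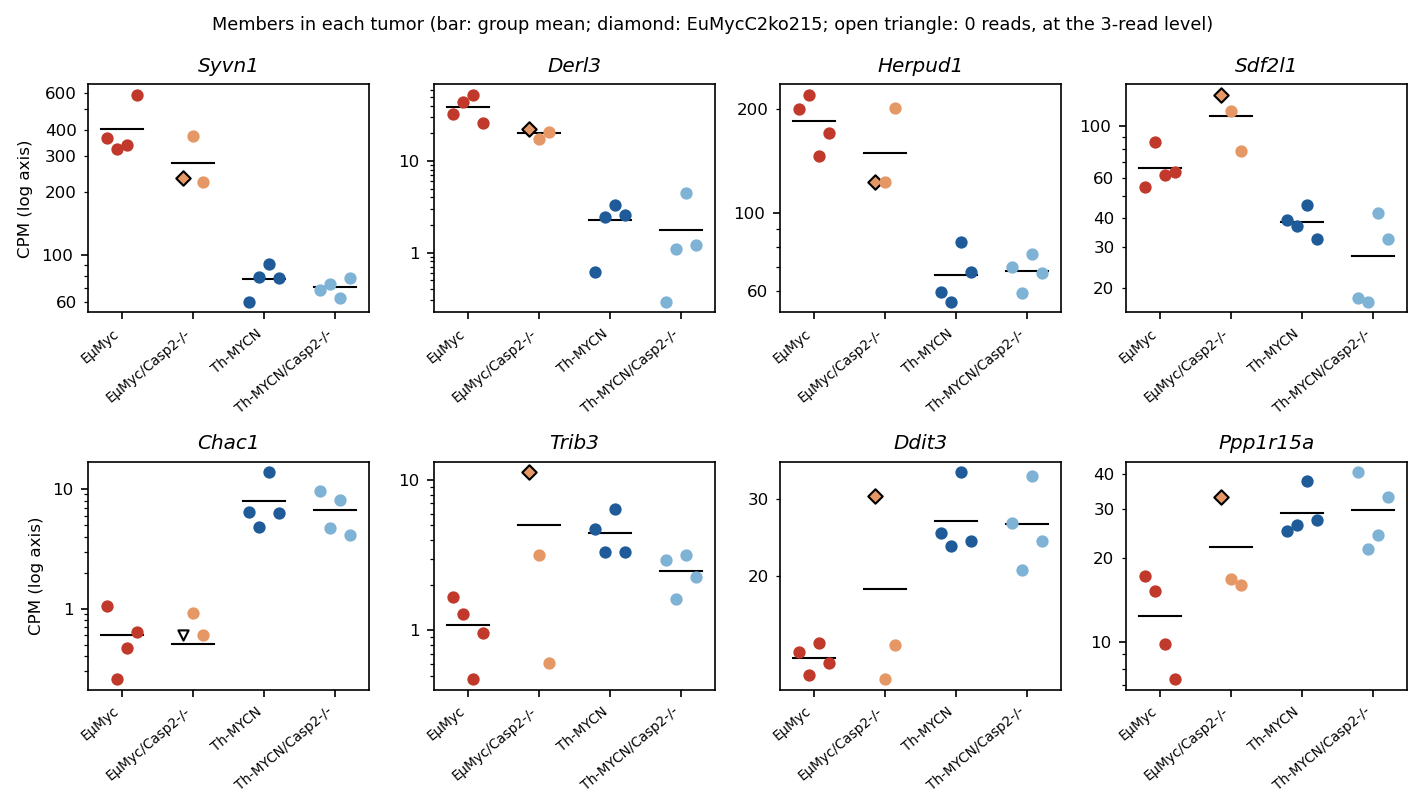
CPM (log axis) of 8 members in each tumor, by group, with the group mean as a bar, EuMycC2ko215 as a diamond and a library with 0 reads as an open triangle at the level of 3 reads. *Syvn1*, *Derl3*, *Herpud1* and *Sdf2l1* are higher in all 7 lymphomas than in all 8 neuroblastomas, *Chac1* is lower, and EuMycC2ko215 lies among the neuroblastomas or above them at *Trib3*, *Ddit3* and *Ppp1r15a*.

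Read against the promoters, the 9 members with an ERSE had log2 fold changes above 0 at 9 of 9 genes in *EμMyc* against *Th-MYCN* (2 called, median 0.67) and at 9 of 9 in *EμMyc/Casp2-/-* against *Th-MYCN/Casp2-/-* (4 called, median 0.81), the latter also without EuMycC2ko215 (5 called, median 1.02). Of all genes 48.9% and 48.5% were above 0 in the 2 comparisons, and 18.9%, 20.5% and, without EuMycC2ko215, 20.8% were called up. The 2 of 9 called in the former were near that share. No promoter was found for *Hyou1*, *Manf*, *Derl1* and *Atf6*, so these could not be sorted by match. They gave -0.03, -0.09, 0.47 and 0.54 in the former comparison. In the latter they gave 0.45, 0.55, 0.23 and 0.46. *Dnajb11* and *Herpud1*, with an ERSE-II, gave 0.79 and 1.47 in the former and 1.00 and 1.12 in the latter, which were 1.07 and 1.30 without EuMycC2ko215. Of the 5 members with a CARE core, 4 were below 0 in *EμMyc* against *Th-MYCN*: *Atf3* (-0.97), *Trib3* (-2.02), *Asns* (-0.56) and *Chac1* (-3.69). The exception was *Herpud1*, which also holds the ERSE-II. In *EμMyc/Casp2-/-* against *Th-MYCN/Casp2-/-* 3 of these 5 were below 0, with *Trib3* above 0 beside *Herpud1*, and without EuMycC2ko215 *Trib3* was below 0 again and so were 4 of 5. Searched members without an ERSE or ERSE-II match did not all stay flat. *Sdf2l1* and *Txnip* rose in *EμMyc/Casp2-/-* against *Th-MYCN/Casp2-/-* with and without EuMycC2ko215, and *Edem1* rose only with this tumor. *Ddit3*, *Ppp1r15a* and *Trib3* fell in *EμMyc* against *Th-MYCN*, and *Chac1* fell in both comparisons. The other searched members without such a match were not called with all tumors, though *Pdia4* gave 0.70 and 0.88. No match says only that these letters are not in this window. Between genotypes, the ERSE members were above 0 at 0 of 9 genes in neuroblastomas (median -0.27) and at 5 of 9 in lymphomas (median 0.11; 6 of 9 and 0.07 without EuMycC2ko215), and none was called.

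Markers of plasma cells, which carry a large ER, moved with tumor type as well. Of 8 tested genes of that list, 6 rose and 1 fell in *EμMyc* against *Th-MYCN*, and 7 rose and 1 fell in *EμMyc/Casp2-/-* against *Th-MYCN/Casp2-/-*, the 1 being *Sdc1*, with the same numbers of the latter comparison without EuMycC2ko215. Of all genes 18.9% rose and 28.5% fell in the former, and 20.5% and 27.6% in the latter (20.8% and 27.4% without EuMycC2ko215). Summed over the 9 genes counted, CPM was 1515, 1422, 2103 and 2031 in *EμMyc*, 1059.7, 1426 and 2256 in *EμMyc/Casp2-/-*, 68.3, 59.6, 72.4 and 67.5 in *Th-MYCN* and 59.3, 73.4, 71.3 and 73.7 in *Th-MYCN/Casp2-/-* tumors. *Pou2af1*, a B-lineage coactivator, was the most abundant in every lymphoma (571 to 1286 CPM), and *Tnfrsf17*, which marks plasma cells more strictly, was at 0 reads in EuMyc614, EuMyc743b, EuMycC2ko215 and 6 neuroblastomas. The part of these cells in the values of *Derl3* and *Syvn1* was not tested.

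Neighboring pathways were described with lists of genes chosen by function, which together hold 170 further genes. Like the members, they were chosen with results of these data known. Their counts stand beside the 18.9% of all genes that rose and 28.5% that fell in *EμMyc* against *Th-MYCN*, and the 20.5% and 27.6% in *EμMyc/Casp2-/-* against *Th-MYCN/Casp2-/-*. Among 28 other folding factors 5 (17.9%, near the share of all genes) rose and 3 (10.7%) fell in *EμMyc* against *Th-MYCN*. *Fkbp11*, a prolyl isomerase of secretory cells, rose, at 3.86 to 21.5 CPM in *EμMyc* against 0.432 to 1.62 CPM in *Th-MYCN* tumors (4.02 ± 0.62, FDR 1.31e-08), and the oxidase *Ero1lb* was at 10.6 to 40.9 CPM against 3.27 to 10.0 CPM (1.75 ± 0.47, FDR 6.96e-04). The largest falls were *Clgn*, a chaperone best known from testis, at 16.003, 13.3, 15.0 and 9.33 CPM in *Th-MYCN* tumors and 2 reads in 1 of the 4 *EμMyc* tumors, for which no fold is given, and *Uggt2*, a glycoprotein glucosyltransferase (-4.61 ± 0.35, FDR 7.29e-34), at 1.22 to 1.81 CPM against 31.9 to 46.7 CPM. For 34 tested genes of the translocon, signal peptidase and early secretory transport 5 rose (14.7%) and 1 fell (2.94%). The signal peptidase subunit *Sec11c* (144 to 222 against 26.2 to 32.3 CPM, 2.69 ± 0.18, FDR 3.91e-42) and the translocating chain protein *Tram1* (191 to 393 against 47.7 to 58.7 CPM, 2.45 ± 0.24, FDR 1.26e-21) led the rises, and the vesicle coat gene *Sec24d* fell (5.86 to 12.1 against 25.9 to 71.4 CPM, -2.53 ± 0.35, FDR 2.77e-11). In *EμMyc/Casp2-/-* against *Th-MYCN/Casp2-/-* 5 folding genes rose and 4 fell (17.9% and 14.3%), and 7 translocon genes rose and 1 fell (20.6% and 2.94%).

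Of 29 other ERAD genes, 3 rose and 4 fell in *EμMyc* against *Th-MYCN* (10.3% and 13.8%, both under the shares of all genes), and 1 rose and 5 fell in *EμMyc/Casp2-/-* against *Th-MYCN/Casp2-/-* (3.45% and 17.2%). *Aup1*, a lipid droplet protein that recruits ubiquitin-conjugating enzymes, rose (1.29 ± 0.21, FDR 9.82e-09; 218 to 238 against 77.1 to 124 CPM), as did the glycanase *Ngly1* (1.24 ± 0.28, FDR 3.37e-05). *Fam8a1* (*C78339* in the files), which assembles with HRD1, fell (-1.59 ± 0.37, FDR 8.45e-05), at 5.10 to 9.75 CPM in *EμMyc* against 22.2 to 26.8 CPM in *Th-MYCN* tumors, and *Jkamp* fell by 1.58 on the log2 scale (FDR 1.23e-09). Among 26 further signaling genes 6 rose and 4 fell in *EμMyc* against *Th-MYCN* (23.1% and 15.4%) and 6 rose and 3 fell in *EμMyc/Casp2-/-* against *Th-MYCN/Casp2-/-* (23.1% and 11.5%). *Nfe2l2*, the antioxidant factor NRF2 that PERK phosphorylates (2.43 ± 0.29, FDR 8.02e-15), and *Eif2ak2*, the eIF2α kinase that senses double-stranded RNA (2.21 ± 0.33, FDR 3.28e-10), rose. *Wfs1*, the gene of wolframin, fell (-1.80 ± 0.42, FDR 6.75e-05), and *Ern2*, the IRE1 of mucosal epithelia, was at 0.750 to 1.89 CPM in *Th-MYCN* tumors and at 1 read in all 4 *EμMyc* tumors together.

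Other ATF4-linked genes went both ways: of 29 tested, 7 rose and 6 fell in *EμMyc* against *Th-MYCN* (24.1% and 20.7%), and 9 rose and 5 fell in *EμMyc/Casp2-/-* against *Th-MYCN/Casp2-/-* (31.0% and 17.2%). Leading the rises were *Phgdh*, which starts serine synthesis (82.0 to 139 against 0.508 to 2.25 CPM, 6.33 ± 0.40, FDR 2.04e-39), and *Shmt2*, the mitochondrial serine hydroxymethyltransferase (470.0 to 833 against 48.3 to 117 CPM, 2.96 ± 0.27, FDR 6.44e-23). *Vldlr*, a lipoprotein receptor (1.14 to 4.46 against 20.8 to 37.0 CPM, -3.64 ± 0.43, FDR 2.09e-14), and the transcription factor *Atf5* (28.5 to 39.4 against 85.3 to 198 CPM, -2.02 ± 0.24, FDR 1.08e-14) led the falls. Of 20 tRNA synthetases 3 (15.0%) rose and none fell in *EμMyc* against *Th-MYCN*, the largest being *Vars* (1.25 ± 0.20, FDR 2.48e-09) and *Dars* (1.09 ± 0.25, FDR 4.66e-05, under 2-fold without EuMyc829, at 0.92, or MYCN332, at 0.98), and 2 (10.0%) rose in *EμMyc/Casp2-/-* against *Th-MYCN/Casp2-/-*. Without EuMycC2ko215 the counts in *EμMyc/Casp2-/-* against *Th-MYCN/Casp2-/-* were 5 up and 4 down for folding, 7 and 1 for the translocon, 3 and 5 for ERAD, 6 and 2 for signaling, 10 and 6 for ATF4-linked genes and 3 and 0 for tRNA synthetases, beside 20.8% up and 27.4% down of all genes in that fit.

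The comparison of *Th-MYCN/Casp2-/-* with *Th-MYCN* neuroblastomas asks whether loss of *Casp2*, a caspase that has been linked to ER stress, comes with a change of the response. None of the 33 members passed by LRT, QLF or DESeq2, and 1 had an unadjusted p under 0.05 by LRT and by QLF (all genes 7.78% and 6.77%). Of all genes 0.188% rose and 0.625% fell by LRT, beside 0.00672% and 0.0269% by QLF. Log2 fold changes were below 0 at 25 of 33 members, with a median of -0.22 beside -0.0024 over all genes. Chaperones were below 0 at 10 of 11 genes (median -0.28), all but *Dnajb9*, and isomerases at 3 of 3 (median -0.29), whereas ERAD genes were spread around 0 (4 of 7 above, median 0.02). Members whose groups did not overlap numbered 0 higher and 3 lower (*Pdia6*, *Atf6* and *Trib3*), while 2.94% and 3.68% of all genes were higher and lower in this way.

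The smallest p was that of *Manf* (chr9:106838312-106891979), a secreted factor that binds BiP. It was at 153, 145, 171 and 142 CPM in *Th-MYCN* and 101, 85.5, 148 and 106 CPM in *Th-MYCN/Casp2-/-* tumors, so that 3 of 4 *Th-MYCN/Casp2-/-* tumors lay below all *Th-MYCN* tumors and MYCNC2ko176 lay among them (-0.47 ± 0.22, LRT FDR 0.510, QLF FDR 0.647). *Hyou1* (chr9:44379490-44392369) was at 179, 218, 247 and 205 CPM in *Th-MYCN* and 149.7, 172, 206 and 157 CPM in *Th-MYCN/Casp2-/-* tumors. MYCNC2ko176 again lay inside the range of *Th-MYCN* and the other 3 *Th-MYCN/Casp2-/-* tumors below it (-0.31 ± 0.17, LRT FDR 0.743). *Sdf2l1*, with the values given above, came next (-0.49 ± 0.29, LRT FDR 0.803). MYCNC2ko176 had the fewest reads on genes of all neuroblastomas (10353787). Its multimapping reads were 17.7%, against 15.0 to 16.5% in the other neuroblastomas, and its *Mycn* 230 CPM, against 296 to 430 CPM. MYCNC2ko176 was the highest *Th-MYCN/Casp2-/-* tumor at 21 of 33 members, a place it took at 26.5% of all genes, and its summed members stood at 5138 CPM against 4000.3 to 4149 CPM in the other 3. Without it, 28 of 33 members were below 0 with a median of -0.33, *Manf* gave -0.65 (FDR 0.167) and *Sdf2l1* -0.77 (FDR 0.270), and still no member passed. Other tumors bore on these values in the other direction: without MYCNC2ko180, 22 members were below 0 with a median of -0.14, and without MYCNC2ko144 *Sdf2l1* gave -0.33 and *Manf* -0.37. Endothelial genes were also lower in *Th-MYCN/Casp2-/-* tumors, with all neuroblastomas chosen for absent or reduced vessels: 2 of 7 fell by LRT and none by QLF, *Pecam1* was the most abundant in all but MYCN175, none was at 0, and their summed CPM was 92.8, 62.6, 59.5 and 56.4 in *Th-MYCN* and 31.9, 29.9, 25.4 and 45.1 in *Th-MYCN/Casp2-/-* tumors. Macrophage genes were below 0 at 10 of 10 (median -0.29). Schwann cell genes were above 0 at 6 of 6 tested (median 0.64), and none of either list was called. Of all genes 49.5% were above 0. The part of these cell types, and of the library of MYCNC2ko176, in the members' values was not tested.

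**Figure D5:**
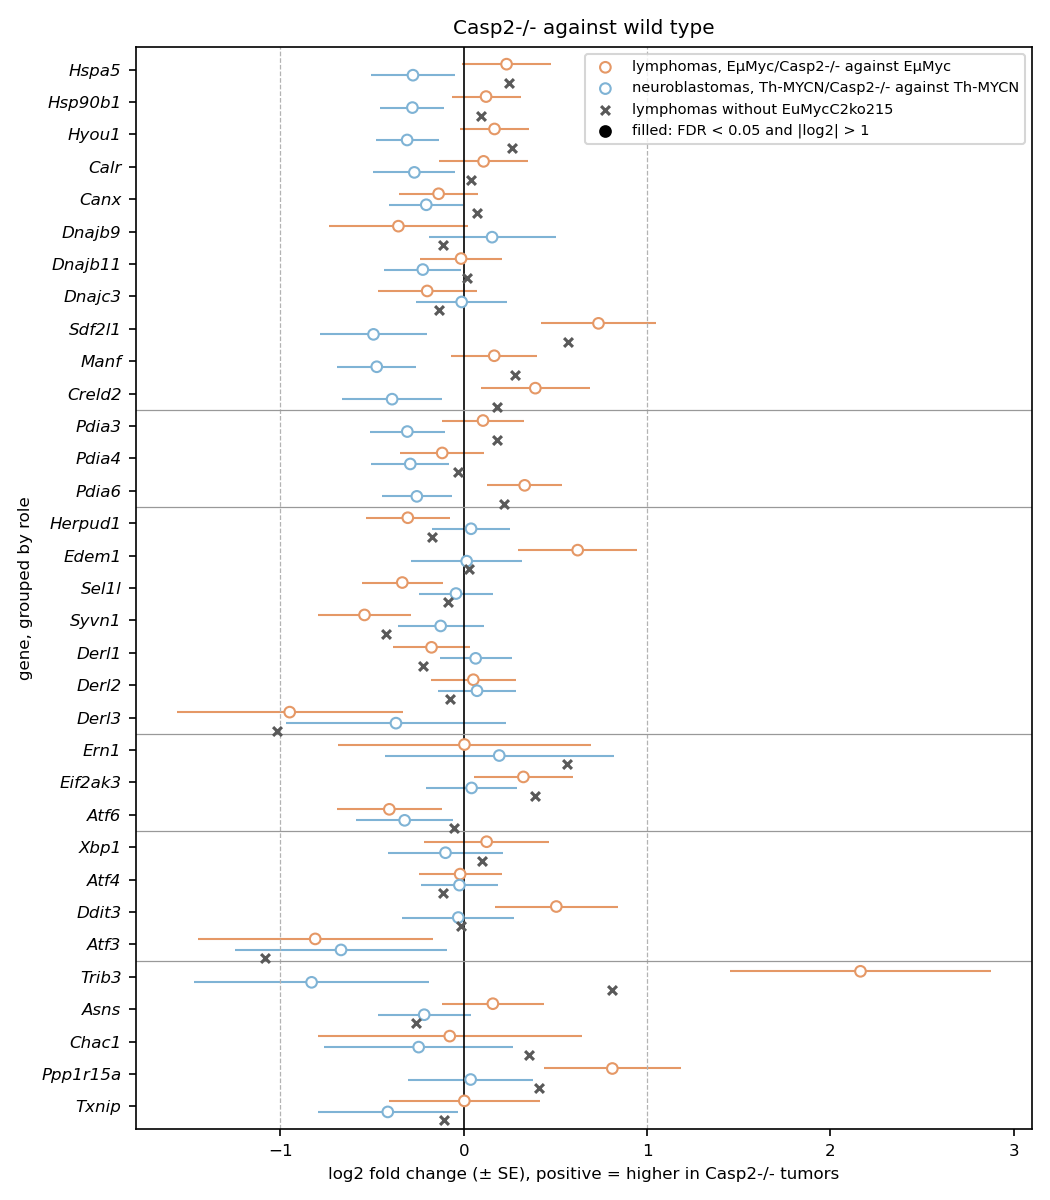
Log2 fold change (± SE) of each member between *Casp2-/-* and wild type tumors, orange for lymphomas and blue for neuroblastomas, with crosses for the lymphomas without EuMycC2ko215. No point is filled, since none of the 33 members passed in either tumor type, and the cross for *Trib3* lies at 0.81 where all 3 *EμMyc/Casp2-/-* lymphomas give 2.16.

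In *EμMyc/Casp2-/-* against *EμMyc* lymphomas no member passed by LRT, QLF or DESeq2, and 4 had an unadjusted p under 0.05 by LRT and by QLF (all genes 9.89% and 8.53%). By LRT 1.14% of all genes rose and 0.302% fell, beside 0.0941% and 0.047% by QLF. Members lay on both sides of 0 (19 above and 14 below, median 0.05, all genes -0.03), with 7 of 11 chaperones above and 5 of 7 ERAD genes below (9 and 6 without EuMycC2ko215). None was higher without overlap and 2 were lower, *Sel1l* and *Derl3*, beside 1.75% and 1.96% of all genes. *Trib3* had the smallest p (2.16 ± 0.71, LRT FDR 0.103, QLF FDR 0.331). Its level in EuMycC2ko215 was 11.3 CPM, against 3.17 and 0.606 CPM in the other *EμMyc/Casp2-/-* tumors and 0.472 to 1.66 CPM in *EμMyc* tumors. Without EuMycC2ko215 the log2 fold change was 0.81 (FDR 1), and without EuMycC2ko245 it was 2.69 (FDR 0.00106) and *Trib3* was called.

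The next members were *Sdf2l1* (0.74 ± 0.31, LRT FDR 0.317) and *Ppp1r15a* (0.81 ± 0.37, LRT FDR 0.396). EuMycC2ko215 was the highest lymphoma at both, and without it they gave 0.57 and 0.41. *Syvn1* was the next member with an unadjusted p under 0.05 (-0.54 ± 0.25, LRT FDR 0.427, -0.42 without EuMycC2ko215). At 3 stress genes, *Trib3*, *Ddit3* and *Ppp1r15a*, named after their values were seen, EuMycC2ko215 was the highest lymphoma, at 11.3, 30.5 and 33.01 CPM, with no other lymphoma above 3.17, 14.02 and 17.2 CPM. *Asns* was likewise highest there among lymphomas, at 127 CPM against up to 92.3 CPM. *Txnip* (313 CPM against up to 411 CPM) and *Atf4* (447 CPM against up to 457 CPM) lay within the range of the other lymphomas, *Chac1* was at 0 reads in EuMycC2ko215, the lowest of all tumors, and *Atf3* was at 5.08 CPM there against up to 14.3 CPM in the other lymphomas. In this comparison 4 of 9 T-cell genes rose by LRT and none by QLF, nor any by LRT without EuMycC2ko215. The T-cell genes, the *Myc* level, the unmapped share and the low depth of this tumor moved with these values, and their part in them was not tested. Without EuMycC2ko215, 18 members were above 0 and 15 below (median 0.03), and without EuMyc829 the numbers were 14 and 19 (median -0.03). They were 21 and 12 (median 0.16) without EuMyc614. No member passed without EuMycC2ko215, while 0.403% of all genes rose and 0.121% fell.

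The effect of genotype was compared between tumor types by the interaction, the log2 fold change in lymphomas minus that in neuroblastomas. No member passed by LRT, QLF or DESeq2 (4 had an unadjusted p under 0.05 by LRT and 5 by QLF, beside 8.96% and 7.57% of all genes), while 0.726% of all genes were called up and 0.188% down by LRT, and 0.0336% and 0.0202% by QLF. The smallest p-values were those of *Trib3* (2.99 ± 0.96, LRT FDR 0.116), *Sdf2l1* (1.23 ± 0.43, LRT FDR 0.180) and *Pdia6* (0.59 ± 0.28, LRT FDR 0.497). *Sdf2l1* passed when EuMycC2ko245 (1.43, FDR 0.0499) or MYCNC2ko176 (1.51, FDR 0.0329) was left out, and *Trib3* without EuMycC2ko245 (3.53, FDR 0.00174). Without EuMycC2ko215 they gave 1.05 and 1.63, with FDRs of 0.530 and 0.678, and *Pdia6* 0.47 (FDR 0.796), while 0.323% of all genes were called up and 0.114% down.

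Of the 166 tested genes of the 6 neighboring lists, 1 passed by LRT in a comparison of genotypes, a fall in neuroblastomas (0.602% of these genes), close to the 0.625% of all genes that fell there. *Shmt2* (chr10:127517123-127522444) fell in *Th-MYCN/Casp2-/-* neuroblastomas, where it was at 29.1, 32.3, 32.1 and 43.2 CPM against 48.3, 99.8, 55.5 and 117 CPM in *Th-MYCN* tumors, without overlap (-1.23 ± 0.27, LRT FDR 0.00392). By QLF the FDR was 0.150, and by LRT the call was lost without MYCN235 (-1.11, FDR 0.0550), MYCN391 (-0.99, FDR 0.0684) or MYCNC2ko118 (-1.16, FDR 0.0508). In lymphomas *Shmt2* gave -0.30 ± 0.29 (LRT FDR 0.838, -0.27 without EuMycC2ko215), and the interaction was 0.93 ± 0.40 (LRT FDR 0.398, 0.96 without EuMycC2ko215). In the lymphomas none of the folding, ERAD, signaling, ATF4-linked, tRNA synthetase or translocon genes passed by LRT or QLF, with or without EuMycC2ko215 by LRT.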

How the data were processed

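RNA of 15 tumors was sequenced on poly(A) libraries as single-end reads of 50 bases. Per the study's methods the authors checked reads with FastQC, aligned them with STAR to mm10 (GRCm38) and tested genes with edgeR. Tool versions and the annotation release are not given in the sources used here. The deposited files hold raw read counts per gene, as STAR writes them for either strand and for each strand, and the count column of the second strand was used, as the authors did. This column held 48.8 to 49.3% of the reads of both strand columns, so the libraries do not mark strand, about as many reads again fell in the column of the other strand, and antisense partners cannot be told apart. The 4 rows that name no gene took 66.4 to 71.8% of all rows' reads and were left out.

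The 14880 of 23329 genes with more than 1 CPM in 3 or more tumors entered the test. Counts were scaled by TMM and fitted with edgeR 4.0.16 (R 4.3.3) on 4 group means over all 15 tumors, tested by likelihood ratio (LRT), with Benjamini-Hochberg FDRs over all genes, and called where the FDR was below 0.05 and the log2 fold change beyond 1 or -1. The quasi-likelihood test (QLF), DESeq2 1.42.0, other filters, size factors, count columns and fits, onset as a covariate and leaving out each tumor were alternatives. The script was tested on simulated data. RPKM used union exon lengths of GENCODE for GRCm38. Depth was 4940464 to 17638029 reads on genes, and 3 reads, the limit that a count of 0 allows, came to 0.170 to 0.607 CPM, for counting error only. Replicate libraries differed by more than sampling noise in all 21 pairs.

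The 33 members, the pathway lists and the marker lists were chosen with earlier results of these data known. Given in full are, between genotypes, members that passed or else the 3 with the smallest p, and between tumor types the 3 largest rises and falls in *EμMyc* against *Th-MYCN*, the sensors, *Xbp1*, *Atf4* and *Ddit3*, and from each pathway list the 2 largest rises and falls. *Sdf2l1* and *Ppp1r15a* enter by this rule in more than one comparison, and other members were given after their values were seen. Sequences are RefSeq promoters of GRCm38.p6. Another *EμMyc/Casp2-/-* tumor was not analysed here, and 2 marker genes are not reported here.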

Additional observations from a re-analysis of the deposited data

Results flagged for a closer look

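Within groups of 4 tumors, 105 sets of values were tested for 1 tumor far from the other 3 by Dixon's ratio at its 95% critical value, and 8 stood apart, where chance flags about 1 set in 20. In *EμMyc* lymphomas, EuMyc835 was far above the rest at *Syvn1* (587 CPM, the others 323 to 365 CPM) and at *Dnajb11* (245 CPM, the others up to 161 CPM), and EuMyc614 at *Txnip* (411 CPM, the others up to 235 CPM). In *Th-MYCN* neuroblastomas, MYCN332 was far above the rest at *Ddit3* (34.6 CPM, the others up to 25.1 CPM) and at *Pdia6* (212 CPM, the others up to 197 CPM), and MYCN175 at *Derl2* (66.8 CPM, the others up to 51.4 CPM) and at *Edem1* (80.1 CPM, the others up to 53.0 CPM). The CPM summed over the 33 members was 5138 in MYCNC2ko176, and 4000.3 to 4149 in the other *Th-MYCN/Casp2-/-* tumors. The check was run on groups of 4 tumors only, so the *EμMyc/Casp2-/-* group, with 3 tumors, was not checked.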

How the results depend on the processing

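Apart from fits that leave out a tumor, and over the alternatives of test, scaling, filter, count column, fit and covariate, 517 log2 fold changes of named genes kept their direction and side of the threshold and 85 counts of members stayed within 1.5-fold, while 3 counts moved, 1 log2 fold change turned and 1 lost its call, that of *Shmt2* in neuroblastomas by QLF (FDR 0.150). With FDR alone, members called up came to 12 in *EμMyc* against *Th-MYCN* and 17 in *EμMyc/Casp2-/-* against *Th-MYCN/Casp2-/-*. With onset as a covariate, 2 members fell in *EμMyc/Casp2-/-* against *Th-MYCN/Casp2-/-*, *Chac1* and *Ppp1r15a*, and *Xbp1* there turned to 0.12 (FDR 0.845). The cause was not tested. Over the fits that each omit 1 tumor, members called up ranged from 3 to 5 and down from 3 to 4 in *EμMyc* against *Th-MYCN*, up from 7 to 10 and down from 1 to 2 in *EμMyc/Casp2-/-* against *Th-MYCN/Casp2-/-*, up from 0 to 1 in *EμMyc/Casp2-/-* against *EμMyc*, and up from 0 to 2 in the interaction, while the other counts stayed at 0. The 5 arose without MYCN175, where *Edem1* and *Txnip* passed. Log2 fold changes ranged over -0.16 to 0.22 for *Eif2ak3*, 0.92 to 1.73 for *Edem1*, 0.85 to 1.30 for *Herpud1* (not called without EuMycC2ko245), 0.97 to 1.40 for *Txnip* (not called without MYCNC2ko180) and -2.14 to -0.47 for *Ern1* in *EμMyc/Casp2-/-* against *Th-MYCN/Casp2-/-*. They ranged over -1.10 to -0.90 for *Ddit3* in *EμMyc* against *Th-MYCN*, 0.81 to 2.69 for *Trib3* in *EμMyc/Casp2-/-* against *EμMyc*, and 1.63 to 3.53 for *Trib3* and 1.05 to 1.51 for *Sdf2l1* in the interaction. An FDR on the other side of 0.05 arose for at least 1 such fit at 8 members in *EμMyc* against *Th-MYCN*, 11 in *EμMyc/Casp2-/-* against *Th-MYCN/Casp2-/-*, 1 in lymphomas, 2 in the interaction and 0 in neuroblastomas, and a sign turned at 6, 5, 15, 12 and 13 members. *Eif2ak3* stood at -0.16 without EuMycC2ko239 and -0.03 without MYCNC2ko144.

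Over all genes, calls between genotypes depended on the test, with 28 up and 93 down by LRT and 1 and 4 by QLF in neuroblastomas, 170 and 45 against 14 and 7 in lymphomas, and 108 and 28 against 5 and 3 in the interaction. They depended on single tumors too, ranging over the fits that each omit 1 tumor from 6 to 54 up and 30 to 138 down in neuroblastomas, 60 to 465 up and 18 to 88 down in lymphomas, and 43 to 281 up and 13 to 48 down in the interaction. In lymphomas, 60 and 18 were left without EuMycC2ko215, 270 and 84 arose without EuMycC2ko239 and 465 and 88 without EuMycC2ko245, and 71 down without EuMyc829. In neuroblastomas, they were 54 and 138 without MYCN175, 6 and 41 without MYCN235, 7 and 30 without MYCN391, 11 and 43 without MYCNC2ko118, 9 and 40 without MYCNC2ko144, and 22 and 54 without MYCNC2ko176. In the interaction, they were 74 and 44 without EuMyc829, 48 and 17 without EuMycC2ko215, 150 and 46 without EuMycC2ko239, 281 and 48 without EuMycC2ko245, 52 and 15 without MYCN235, 43 and 13 without MYCN391, 54 and 17 without MYCNC2ko118, 60 and 18 without MYCNC2ko144, 61 and 25 without MYCNC2ko176 and 56 and 17 without MYCNC2ko180. Fitted alone, neuroblastomas gave 95 and 194 and lymphomas 31 and 15. With onset as a covariate these were 17 and 49, and 74 and 35, and the interaction gave 37 up. No paired analysis was run, because nothing in the labels ties a tumor of 1 group to a tumor of another. Few reads limit *Chac1*, *Trib3* and *Ern1*, and 3 *EμMyc/Casp2-/-* tumors, 1 of them apart from the rest, limit what the lymphomas can show.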

Other observations

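Markers of further cell types were counted beside the members. In *EμMyc* against *Th-MYCN* 18.9% of all genes rose and 28.5% fell. In *EμMyc/Casp2-/-* against *Th-MYCN/Casp2-/-* 20.5% rose and 27.6% fell (20.8% and 27.4% without EuMycC2ko215). Summed CPM of 10 macrophage genes was 573 to 1275 in *EμMyc*, 348 to 1723 in *EμMyc/Casp2-/-*, 657 to 964 in *Th-MYCN* and 387 to 909 in *Th-MYCN/Casp2-/-* tumors. In each comparison of lymphomas with neuroblastomas 2 of 10 rose, near the share of all genes. Summed CPM of 7 fibroblast genes was 434 to 1416, 371 to 862, 254 to 497 and 207 to 589 in the same order, with 3 of 7 up in *EμMyc* against *Th-MYCN* and 1 up and 1 down in *EμMyc/Casp2-/-* against *Th-MYCN/Casp2-/-*. Schwann cell genes were lower in lymphomas (19.1 to 51.9 and 22.4 to 48.4 CPM) than in neuroblastomas (83.3 to 174 and 131 to 178 CPM), where 5 and 6 of 6 tested genes fell in the comparisons of the wild type and the *Casp2-/-* tumors. Erythroid genes were at 21.3 to 58.0 CPM in *EμMyc*, 11.7 to 673 CPM in *EμMyc/Casp2-/-*, 21.2 to 109 CPM in *Th-MYCN* and 7.15 to 31.0 CPM in *Th-MYCN/Casp2-/-* tumors, with the highest value in EuMycC2ko245. The globin gene *Hbb-bs* was the most abundant of the list in every tumor, at 630 CPM in EuMycC2ko245. The globin genes *Hba-a1*, *Hba-a2*, *Hbb-b1* and *Hbb-b2* were at 0 reads in every library, and the reason was not tested. Of 2 tested erythroid genes, 2 rose in *EμMyc/Casp2-/-* against *Th-MYCN/Casp2-/-* by LRT and by QLF, and none was called in *EμMyc* against *Th-MYCN*. Endothelial genes were higher in lymphomas (138 to 280.1 and 189 to 245 CPM summed over 7 genes) than in neuroblastomas (56.4 to 92.8 and 25.4 to 45.1 CPM), with 4 of 7 up in *EμMyc* against *Th-MYCN* and 6 of 7 up in *EμMyc/Casp2-/-* against *Th-MYCN/Casp2-/-*, also without EuMycC2ko215, and none down. *Pecam1* was the most abundant in all tumors but MYCN175, and 1 gene was called up in the interaction. The macrophage, fibroblast, Schwann cell and erythroid lists had no gene called between genotypes. Their part in the members' values was not tested.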
